A study of Mus musculus with 6 samples.

Results

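The genes described here are 9 cell surface receptors for collagen, fibronectin and related matrix proteins, chosen by name: the integrin alpha chains Itga1, Itga2, Itga11, Itga5 and Itgav, the integrin beta chains Itgb1, Itgb3 and Itgb5, and the discoidin domain receptor Ddr2. All 9 are among the 18301 gene symbols of the deposited table, and 8 of them had a mean of at least 1 RPKM, the authors' unit of reads scaled to gene length and library depth, and were tested. Itga2 was below that filter. RNA came from mouse embryonic fibroblasts of the cross CBA/CaJ X C57BL/6J on day 2 of reprogramming, in 6 libraries. All were transfected with a short hairpin RNA (shRNA) and, but for 1 library, kept in the defined medium iCD1 with ethanolamine (Etn). The control group, shLuc, received an shRNA against luciferase and has 2 libraries. The other groups have 1 library each: shEtnk1/2 (against both ethanolamine kinases), shPcyt2 (against the next enzyme of the CDP-ethanolamine pathway), Etn-deprived (shLuc cells in iCD1 without Etn) and shPebp1 (against phosphatidylethanolamine-binding protein 1). The pathway makes phosphatidylethanolamine, a membrane lipid, and the shPebp1 library was added to ask whether Etn acts through Pebp1.

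Integrins are receptors of 1 alpha and 1 beta chain that tie the matrix outside the cell to the actin cytoskeleton. The alpha chain largely sets the ligand. The products of Itga1, Itga2 and Itga11 pair with the Itgb1 product and bind collagens, that of Itga5 pairs with Itgb1 and binds fibronectin, and that of Itgav pairs with several beta chains, Itgb3 and Itgb5 among them, and binds ligands that carry the tripeptide Arg-Gly-Asp, such as vitronectin. Ddr2 is a receptor tyrosine kinase that is activated by fibrillar collagen and is found on mesenchymal cells. Fibroblasts attach to and pull on collagen and fibronectin through these receptors, and epithelial cells rely more on the laminin receptor chains Itga6 and Itgb4.

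Reads in genes, recovered from the steps of the RPKM values, ranged from 18467583 to 20020465 per library. Etnk1 fell in shEtnk1/2 to 59.1% of the shLuc mean (limma adjusted p = 0.00401), and Etnk2 had only 15 to 45 reads per library. Pcyt2 was at 72.9% of the shLuc mean in shPcyt2 (limma adjusted p = 0.16). It was also below both controls in Etn-deprived, at 81.5% of the shLuc mean (limma adjusted p = 0.0852). The same held in shEtnk1/2 (86.6%, limma adjusted p = 0.206) and shPebp1 (93.3%, limma adjusted p = 0.944). Pebp1 stood at 250.4 RPKM in shLuc replicate 1 but at 100.7 RPKM in the library labelled shLuc replicate 2, close to the 99.6 RPKM of shPebp1, so the second control goes against its label for this gene. Every comparison with shLuc below uses both controls, and the values without the library labelled shLuc replicate 2 are given where a call rests on it. Of the fibroblast markers all 8 were expressed. Their summed level was 8112 and 8123 RPKM in the controls and 10448 RPKM in shEtnk1/2, with the other libraries from 7503 to 8689 RPKM. Most of that sum came from Col1a1, Col1a2 and Vim, at 3600, 3348 and 2567 RPKM in shEtnk1/2. They were at 2322, 2684 and 2437 RPKM in shLuc replicate 1 and 2523, 2672 and 2307 in the library labelled shLuc replicate 2. Markers of macrophages (sum 7.86 to 10.2 RPKM over the libraries), platelets (0.825 to 1.30 RPKM) and skeletal muscle (1.90 to 4.95 RPKM) were low, and those of endothelium (21.7 to 25.5 RPKM), keratinocytes (19.3 to 30.7 RPKM) and neurons (51.3 to 73.1 RPKM) were each carried by few genes. Tek alone gave 20.7 to 24.6 RPKM of the endothelial sum, with Pecam1, Cdh5, Tie1 and Emcn at 0 to 0.33 RPKM. Itgb4, which is also an integrin chain, gave 16.9 to 29.0 RPKM of the keratinocyte sum, while Krt14 was at 2.01 RPKM in shEtnk1/2 and 1.25 and 0.888 in the controls. Stmn2 gave 33.5 to 53.8 RPKM of the neuronal sum, which was lowest in shEtnk1/2. The part of these marker levels in the results was not tested. In these bulk samples a change in the share of a cell type and a change in RNA per cell cannot be told apart.

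The 9 genes spanned a wide range of levels in the same order in all 6 libraries. RPKM is scaled to gene length, so levels can be set side by side as far as the gene models cover each gene. The models are not given, and those of Itga1 and Itga5 may fall short, as described below. Itgb1 was highest, at 243.2 to 302.2 RPKM over the 6 libraries. Itgb5 followed at 65.6 to 79.3 RPKM, then Itga5 at 43.2 to 50.6, Ddr2 at 37.6 to 42.8, Itgav at 28.1 to 33.5 and Itga11 at 14.6 to 23.4 RPKM. Each of these ranges lay clear of the next. Itga1, at 2.53 to 3.37 RPKM, and Itgb3, at 1.96 to 3.04 RPKM, overlapped in range, although Itga1 was the higher in each of the 6 libraries. Itga2 was barely detected, with 3 to 10 reads per library. Itgb1 stood above 99.0% of the genes in the table and Itga11 above 75.6%. Among the beta partners of the Itgav product, the Itgb5 level was 26.1 to 33.4 times the Itgb3 level.

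**Figure D1:**
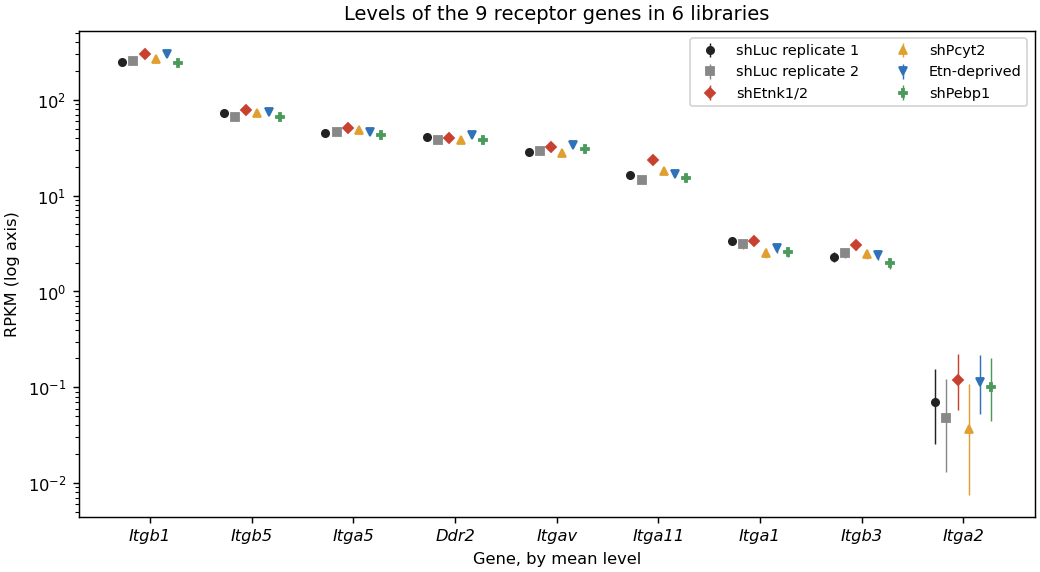
RPKM (log axis) of the 9 receptor genes in the 6 libraries, in order of mean level; lines are 95% Poisson intervals (counting error only). The ranges of Itga1 (2.53 to 3.37 RPKM) and Itgb3 (1.96 to 3.04 RPKM) overlap, and Itga2 has 3 to 10 reads per library.

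Of the 8 tested receptor genes, 2 rose in the shEtnk1/2 library, Itga11 and Itgb1, which encode the chains of 1 collagen receptor. By limma, with Benjamini-Hochberg adjustment over all genes and a threshold of 0.05, 3.46% of all tested genes were called in either direction, 1.09% of all 11939 tested genes higher and 2.37% lower (130 and 283 genes; 138 and 102 when the libraries were scaled to a common median ratio, 81 and 72 after quantile normalization). All 8 were above the mean of the controls, although Ddr2 was at -0.04 without the library labelled shLuc replicate 2. Of the 8, 7 lay above both controls and 0 below both, beside 25% and 51.9% of all tested genes. Their median log2 difference was 0.17, where that of all tested genes was -0.06.

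Itga11, the alpha chain that binds fibrillar collagen on fibroblasts, was at 16.3 RPKM in shLuc replicate 1, 14.6 in the library labelled shLuc replicate 2, 23.4 in shEtnk1/2, 18.0 in shPcyt2, 17.0 in Etn-deprived and 15.4 in shPebp1. The shEtnk1/2 library stood apart from all others, at 151.4% of the shLuc mean, and its 95% counting interval (22.4 to 24.4 RPKM) did not meet that of any other library. The log2 difference from shLuc, on the scale of log2(RPKM + 1), was 0.57 (SE 0.10, n = 1 against 2, limma adjusted p = 0.0164). The gene lies on chromosome 9 of build mm10, from 62677855 to 62783979. Leaving out the library labelled shLuc replicate 2 and estimating spread from shPcyt2 and Etn-deprived, the difference was 0.50 and did not pass (adjusted p = 0.96), and without shLuc replicate 1 it was 0.64 (adjusted p = 0.597). Over 11 alternatives the adjusted p ranged from 2.31e-08 to 0.96, and the gene was called in 8.

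Itgb1, the common beta chain of the collagen and fibronectin receptors (chromosome 8, 128685654 to 128733579), was at 250.2 RPKM in shLuc replicate 1 and 251.7 in the library labelled shLuc replicate 2, so the controls nearly coincided. It was at 302.2 RPKM in shEtnk1/2, 298.2 in Etn-deprived, 266.5 in shPcyt2 and 243.2 in shPebp1. Both shEtnk1/2 and Etn-deprived were well above the rest, with shPcyt2 between them and the controls. The rise in shEtnk1/2 was 0.27 (SE 0.06, limma adjusted p = 0.0453), close to the threshold, and it was not called after quantile normalization (adjusted p = 0.0819). Without the library labelled shLuc replicate 2 the difference was the same size, 0.27, but did not pass (adjusted p = 1), the spread then coming from shPcyt2 and Etn-deprived. Without shLuc replicate 1 it was 0.26 (adjusted p = 1). Over 11 alternatives the adjusted p ranged from 0.00152 to 1, and the gene was called in 7.

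**Figure D2:**
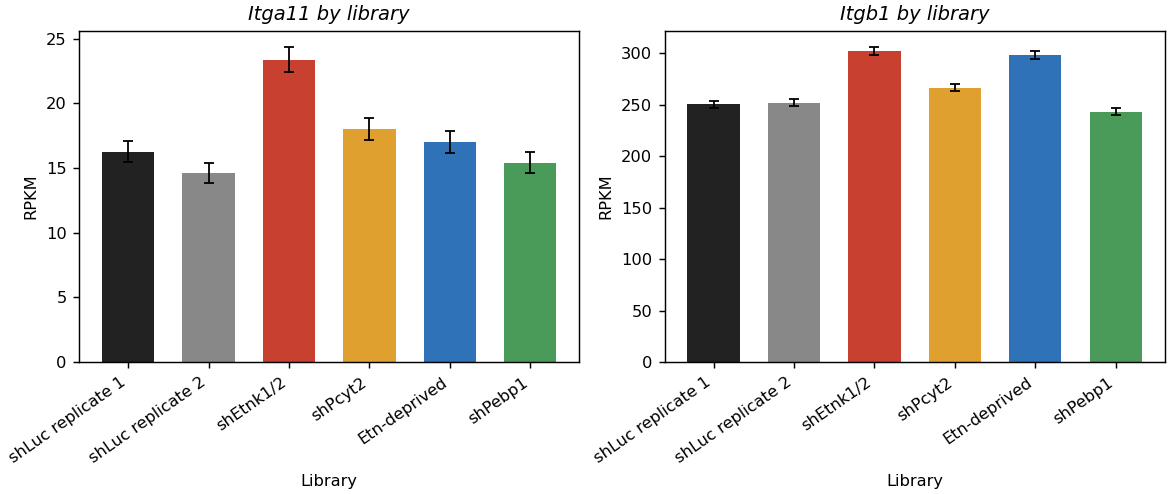
RPKM of Itga11 and Itgb1 in each library, with 95% Poisson intervals as error bars. Itga11 was highest in shEtnk1/2 at 23.4 RPKM, and Itgb1 was highest in shEtnk1/2 (302.2 RPKM) and Etn-deprived (298.2 RPKM).

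Itga11 and Itgb1 were the receptor genes called in shEtnk1/2, so their promoters are shown. Each runs from 250 bases before to 50 bases after the RefSeq start (build GRCm38.p6, plus strand, 5′ to 3′). In both the RefSeq start is the gene start of the deposited table. Capitals mark any match, on either strand, to 5 short motifs: the GC box GGGCGG, the E-box CACCTG bound by Snail and Zeb repressors, the AP-1 site TGANTCA, the SMAD-type element CAGACA and the TATA box TATAAA.
Itga11, chr9:62677605-62677904: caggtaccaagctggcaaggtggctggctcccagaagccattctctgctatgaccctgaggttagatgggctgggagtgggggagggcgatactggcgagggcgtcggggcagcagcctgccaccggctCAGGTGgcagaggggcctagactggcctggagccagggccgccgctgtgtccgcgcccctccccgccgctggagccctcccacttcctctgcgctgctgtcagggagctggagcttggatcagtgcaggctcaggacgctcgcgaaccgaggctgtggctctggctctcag
Itgb1, chr8:128685404-128685703: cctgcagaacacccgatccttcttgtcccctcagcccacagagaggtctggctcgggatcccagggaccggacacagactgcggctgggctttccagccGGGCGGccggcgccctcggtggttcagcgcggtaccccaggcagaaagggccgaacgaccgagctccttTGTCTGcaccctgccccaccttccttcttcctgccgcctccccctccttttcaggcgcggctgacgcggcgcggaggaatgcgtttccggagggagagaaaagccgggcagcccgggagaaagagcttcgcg
The Itga11 window held 1 E-box and no other motif of the 5, and the Itgb1 window held 1 GC box and 1 SMAD-type element. So they shared no motif of this set. The E-box was found in 20.2% of all 32851 RefSeq windows of this length, the GC box in 35.7% and the SMAD-type element in 21.0%. Windows were found for 8 of the 9 receptor genes; GC boxes stood in 5 of them, E-boxes in 2 (Itga11 and Itgb5), SMAD-type elements in 2 (Itgb1 and Itga2), a TATA box in 1 (Ddr2) and the AP-1 site in 0 (7.81% of all windows). Both windows were rich in G and C, 68% for Itga11 and 67.3% for Itgb1, where the median window had 52.7%. The Ddr2 window differed from them, with 39% G and C and 2 CpG dinucleotides against 16 in Itga11 and 27 in Itgb1. These matches describe letters only.

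Of the other collagen receptors none was called in shEtnk1/2. Itga1, which favours basement membrane collagen, was at 3.34 RPKM in shLuc replicate 1, 3.12 in the library labelled shLuc replicate 2, 3.37 in shEtnk1/2, 2.53 in shPcyt2, 2.81 in Etn-deprived and 2.57 in shPebp1. Its level in shEtnk1/2 was that of the controls (0.05, 95% interval -0.31 to 0.40), and the other treated libraries all lay below both controls. None of those differences passed the test, the lowest being -0.26 in shPcyt2 (95% interval -0.61 to 0.09, limma adjusted p = 0.89). The annotated gene Gm49395 shares exons with Itga1 on the same strand, so its counts are uncertain. The deposited Itga1 gene on chromosome 13 stops at 115049403, short of the RefSeq start at 115101964. Its model may therefore not cover the whole gene. Itga2, the collagen receptor chain of platelets and epithelium, had 6 and 4 reads in the controls, 10 in shEtnk1/2, 3 in shPcyt2, 9 in Etn-deprived and 8 in shPebp1. At this depth no difference between these libraries could be seen, since the 95% counting intervals of the libraries with 3 and 10 reads overlap (0.00757 to 0.107 and 0.0575 to 0.221 RPKM).

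The ratio of the 2 tested collagen-binding alpha chains, Itga11 and Itga1, also stood apart. Itga10 was measured too, at 0.596 to 0.973 RPKM, but its mean was below the filter. The Itga11 level was 4.86 and 4.69 times that of Itga1 in the controls, 6.94 times in shEtnk1/2, 7.11 in shPcyt2, 6.04 in Etn-deprived and 6.00 in shPebp1. All 4 treated libraries lay above both controls in this ratio, but how often other gene pairs do so was not counted. Itga1 had only 286 to 403 reads per library. Its 95% counting interval in shPebp1 (2.28 to 2.88 RPKM) met that of the library labelled shLuc replicate 2 (2.81 to 3.45 RPKM). In shPebp1 Itga11 itself, at 15.4 RPKM, lay between the controls. In shEtnk1/2 Itga11 had its highest value, and in shPcyt2 Itga1 had its lowest. No test was run on the ratio.

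Ddr2, the collagen-activated kinase (chromosome 1, 169972307 to 170088944), was among the steadiest of the 9. It was at 41.3 RPKM in shLuc replicate 1, 37.6 in the library labelled shLuc replicate 2, 40.3 in shEtnk1/2, 38.0 in shPcyt2, 42.8 in Etn-deprived and 38.4 in shPebp1. The controls spanned nearly the whole range, and only Etn-deprived lay outside it. In shEtnk1/2 the difference was 0.03 (95% interval -0.16 to 0.22). An antisense RNA gene, 3110045C21Rik, overlaps exons of Ddr2 in the GENCODE annotation, and the strand setting of the counting is not given, so reads of the pair cannot be told apart.

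Of the fibronectin and Arg-Gly-Asp receptor chains, Itgb1 alone was called in any comparison with shLuc. Itga5, the fibronectin-specific alpha chain, was at 45.3 RPKM in shLuc replicate 1, 46.6 in the library labelled shLuc replicate 2, 50.6 in shEtnk1/2, 48.4 in shPcyt2, 46.3 in Etn-deprived and 43.2 in shPebp1. Its difference in shEtnk1/2 was 0.14 (95% interval -0.03 to 0.31, limma adjusted p = 0.359). The table gives Itga5 on chromosome 15 from 103344286 to 103350454, short of the RefSeq start at 103366791, so its model may not cover the whole gene.

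Itgav, the alpha chain shared by the vitronectin receptors, was at 28.6 RPKM in shLuc replicate 1, 29.1 in the library labelled shLuc replicate 2, 32.2 in shEtnk1/2, 28.1 in shPcyt2, 33.5 in Etn-deprived and 30.8 in shPebp1. It was highest in Etn-deprived and shEtnk1/2, as Itgb1 was. The differences were 0.21 in Etn-deprived (95% interval 0.03 to 0.39, limma adjusted p = 0.195) and 0.15 in shEtnk1/2 (-0.03 to 0.34, adjusted p = 0.34), neither past the threshold. A non-coding transcript on the other strand, Gm13684, overlaps its exons.

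Itgb5 and Itgb3, beta partners of Itgav, were both highest in shEtnk1/2 and lowest in shPebp1. The beta chain Itgb8 differed, being highest in shPebp1 at 1.72 RPKM. Itgb5 was at 72.7 RPKM in shLuc replicate 1, 66.0 in the library labelled shLuc replicate 2, 79.3 in shEtnk1/2, 72.2 in shPcyt2, 74.3 in Etn-deprived and 65.6 in shPebp1. Itgb3, far lower, was at 2.30, 2.53, 3.04, 2.47, 2.39 and 1.96 RPKM in the same order. In shEtnk1/2 the differences were 0.19 for Itgb5 (95% interval 0.01 to 0.37, limma adjusted p = 0.223) and 0.24 for Itgb3 (-0.13 to 0.62, adjusted p = 0.481), and neither was called.

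**Figure D3:**
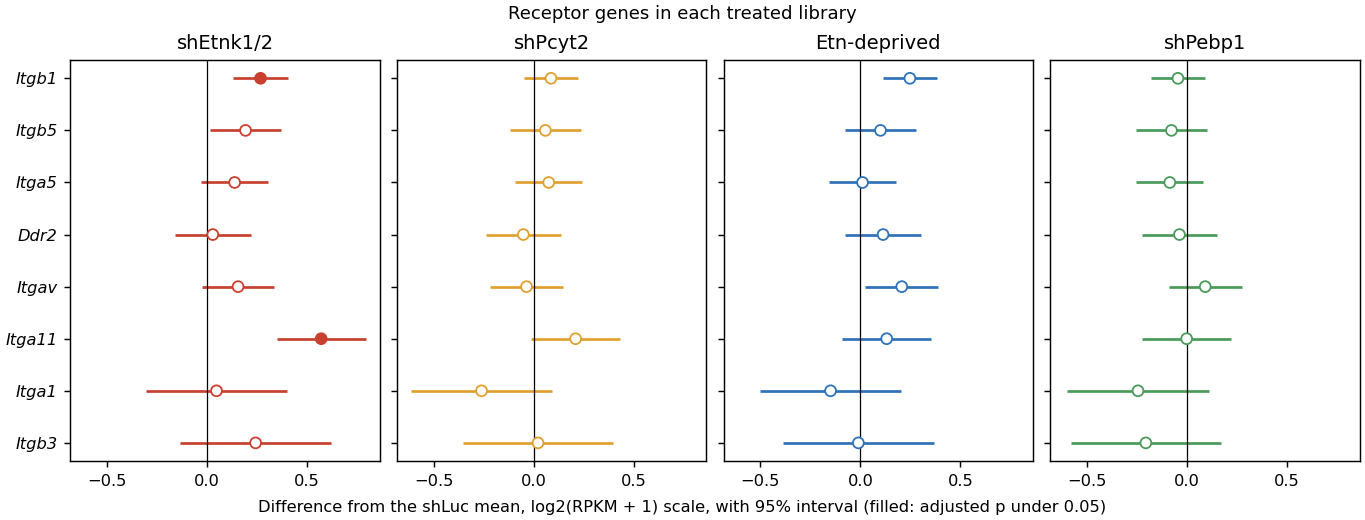
Difference of each tested receptor gene from the shLuc mean on the log2(RPKM + 1) scale in the 4 treated libraries, with 95% intervals from limma; filled points have an adjusted p under 0.05. In shEtnk1/2 the 8 points lie between 0.03 and 0.57, and the 2 filled ones are Itga11 (0.57) and Itgb1 (0.27).

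In the Etn-deprived library 0 of the 8 genes passed by limma (2 had an unadjusted p under 0.05), where 3.8% of all tested genes were called, 0.586% higher and 3.22% lower (70 and 384 genes; 29 and 49 with the length trend removed, 294 and 406 with limma-voom). Itgb1 came closest, at 0.25 (SE 0.06, adjusted p = 0.0546), nearly the size of its difference in shEtnk1/2. It was called with limma-voom on the recovered reads (adjusted p = 0.00651), after quantile normalization (0.37, adjusted p = 0.0255) and when testing was limited to genes averaging 5 RPKM or more (adjusted p = 0.0336), and it had adjusted p values from 0.00651 to 0.827 over its 11 alternatives. Itgav followed at 0.21, and Itga11 was at 0.13 (95% interval -0.09 to 0.35). Of the 8 tested genes, 5 lay above both controls, beside 36% of all tested genes, and 1, Itga1, below both, beside 41.9%.

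In the shPcyt2 library none of the 8 passed by limma (0 had an unadjusted p under 0.05, and limma-voom also called 0), where 0.109% of all tested genes were called, 0.0503% higher and 0.0586% lower. Itga11 had the highest value, 0.21 (95% interval -0.01 to 0.43, adjusted p = 0.867), and Itga1 the lowest. Itgb1 was at 0.09 (-0.05 to 0.22). The genes above both controls were Itga11, Itga5 and Itgb1, 3 of the 8, beside 29% of all tested genes, and Itga1 and Itgav lay below both, beside 39.4%.

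In the shPebp1 library limma and limma-voom again called 0 of the 8, with 0 at an unadjusted p under 0.05, where 0.101% of all tested genes were called, 0.00838% higher and 0.0921% lower. Here 5 of the 8 (Itga1, Itga5, Itgb1, Itgb3 and Itgb5) lay below both controls, beside 31.7% of all tested genes, and 1 of the 8, Itgav, lay above both, beside 36.6%. The differences were small, from -0.24 for Itga1 to 0.09 for Itgav. Itga11 was at -0.00144 (95% interval -0.22 to 0.22). The library labelled shLuc replicate 2 shares the low Pebp1 level of this library, and without it Itga11 was at -0.07 and Itgb1 at -0.04, neither called (Itga11 was at 0.07 without shLuc replicate 1).

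The 3 libraries of pathway inhibition, shEtnk1/2, shPcyt2 and Etn-deprived, were also taken as 1 group of 3 against the 2 controls. By limma 0 of the 8 genes passed (2 at an unadjusted p under 0.05, and 0 by limma-voom), and 0% of all tested genes were (724 at an unadjusted p under 0.05). Of the 8, 2 genes, Itga11 and Itgb1, lay above both controls in all 3 libraries, where 7.82% of all tested genes did, and none of the 8 lay below both in all 3, where 15.9% did. Itga11 differed by 0.30 (SE 0.13, limma adjusted p = 0.812) and Itgb1 by 0.20 (SE 0.08, adjusted p = 0.812). A permutation test of 3 against 2 libraries has 10 splits and cannot give a p below 0.1.

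The shEtnk1/2 library was then set against each other treated library, 1 library against 1, with the spread of the shLuc pair. These comparisons are of the libraries and cannot show that the treatments differ. Against shPebp1 both were higher, Itga11 by 0.57 (SE 0.12, limma adjusted p = 0.031) and Itgb1 by 0.31 (SE 0.07, adjusted p = 0.0471), in a comparison that called 2.72% of all tested genes, 1.27% higher and 1.45% lower (152 and 173 genes; 180 and 77 after median ratio scaling). Neither passed when a control was left out (adjusted p = 0.523 to 0.986). By limma-voom Itgb5 was called there too (0.27, adjusted p = 0.0403; 0.153 by limma). Against shPcyt2 0 of the 8 were called by limma (2 at an unadjusted p under 0.05), where 0.921% of all tested genes were called, 0.168% higher and 0.754% lower (20 and 90 genes; 5 and 9 after median ratio scaling). Itga11 was then 0.36 higher (95% interval 0.10 to 0.62, adjusted p = 0.201) and was called by limma-voom (adjusted p = 0.0256). Against Etn-deprived 0 of the 8 were called (1 at an unadjusted p under 0.05), where 0.854% were called, 0.477% higher and 0.377% lower. Itga11 was 0.44 higher there (0.18 to 0.70, adjusted p = 0.125; limma-voom 0.00284). Itgb1 stood at 0.02 between these 2 libraries (95% interval -0.14 to 0.18). Itgb1 was at -0.11 there after quantile normalization.

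Across the 12 alpha chains that can pair with the Itgb1 product, the summed level was 147.3 and 147.5 RPKM in the controls and 160.9 RPKM in shEtnk1/2. Within that sum Itga5 held 30.7% and 31.6% in the controls and 31.5% in shEtnk1/2. Itga11 held 11.04% and 9.92% in the controls and 14.5% in shEtnk1/2, with the other treated libraries at 10.7% to 12.0%. Itga6, the alpha chain of laminin receptors, held 27.9% and 26.1% in the controls and 19.8% in shEtnk1/2. The Itgb1 level was 1.70 and 1.71 times the alpha sum in the controls, 1.88 in shEtnk1/2, 1.78 in shPcyt2, 1.91 in Etn-deprived and 1.69 in shPebp1. In RPKM, Itgb1 thus exceeded the sum of its possible alpha partners in all 6 libraries, as far as the gene models allow genes to be compared.

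**Figure D4:**
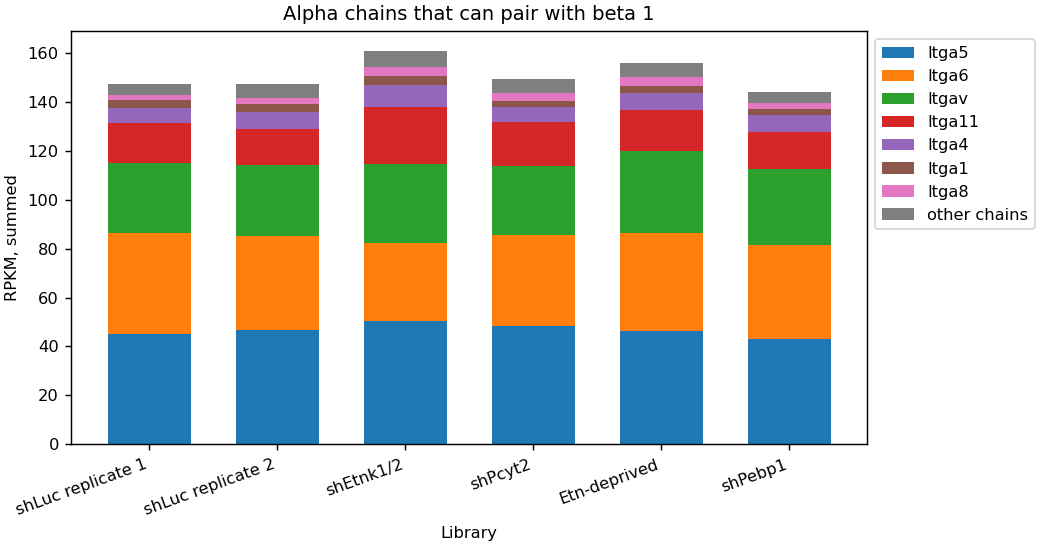
Stacked RPKM of the 12 alpha chains that can pair with beta 1, by library; the 7 highest are drawn singly and the rest summed. Compared across the libraries, shEtnk1/2 has the widest Itga11 band (14.5% of its sum) and the narrowest Itga6 band (19.8%).

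The other integrin chains were mostly low or not called. Of 18 such chains, 8 reached the filter. In shEtnk1/2 limma called none of them, while limma-voom called 3 higher and 2 lower. By limma 5 were above and 3 below the shLuc mean, with a median of 0.12 (-0.06 for all tested genes). The largest differences were those of Itgb4, at 29.0 RPKM in shLuc replicate 1, 23.1 in the library labelled shLuc replicate 2 and 16.9 in shEtnk1/2 (-0.58, SE 0.14, limma adjusted p = 0.0815), and of Itga8, at 2.10, 2.65 and 3.84 RPKM (0.52, SE 0.17, adjusted p = 0.13). Itgb4 and Itga6 (-0.31, SE 0.08, adjusted p = 0.0726; named after its values were seen) form the laminin receptor of epithelial hemidesmosomes. Both were lower than in either control, and neither passed with the filter of 1 RPKM. When testing was limited to genes averaging 5 RPKM or more, 3 of these chains were tested. Itgb4 and Itga6 were then the 2 called lower. Without the robust step 1 chain was called lower, and 0 were with median ratio scaling or quantile normalization. Chains of white blood cells and platelets, such as Itgam, Itgal, Itgb2 and Itga2b, were at 0.07 to 0.88 RPKM. Of the other collagen receptors, 2 were tested and none was called: the epithelial kinase Ddr1 was at -0.18 and the endocytic receptor Mrc2 at 0.14 in shEtnk1/2.

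Several collagens that these receptors bind rose in shEtnk1/2. Of 10 collagen genes 6 were called higher and 1 lower by limma, beside 1.09% and 2.37% of all tested genes. Their median was 0.31 where all tested genes had -0.06. With no filter on low values 0 of the 10 were called. Col1a1, a chain of type I collagen, was at 2322 RPKM in shLuc replicate 1, 2523 in the library labelled shLuc replicate 2 and 3600 in shEtnk1/2 (0.57, SE 0.06, adjusted p = 0.00291). Col5a2 (0.37, adjusted p = 0.0132) and Col5a1 (0.36, adjusted p = 0.0163) of type V collagen and Col1a2 (0.32, adjusted p = 0.0121) also rose. Col4a1, of basement membrane collagen, fell by 0.31 (adjusted p = 0.0296). It was the one called lower, and it was not called after median ratio scaling, where 6 were higher and 0 lower. After quantile normalization 3 of the 10 were higher and 0 lower, with a median of 0.17. Col1a1 and Col1a2 are also among the fibroblast markers summed above. These lists were chosen with earlier results of the same libraries in view and are not independent evidence of direction.

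Of 14 tested ligands with an Arg-Gly-Asp motif or of matricellular type, 6 were called higher in shEtnk1/2 and none lower, with a median of 0.27. Of all tested genes 1.09% were called higher and 2.37% lower. The count of ligands called higher was 4 after quantile normalization, 7 with the filter of 5 RPKM, 9 with limma-voom and 0 with no filter on low values. The largest differences were those of the matricellular protein Postn (0.90, SE 0.10, limma adjusted p = 0.0141), of Spp1, osteopontin (0.73, adjusted p = 0.0132), of Edil3 (0.64, adjusted p = 0.0349) and of Thbs1, thrombospondin 1 (0.57, adjusted p = 0.00299). Fn1, fibronectin itself, was at 380.1 and 372.6 RPKM in the controls and 438.7 in shEtnk1/2 (0.22, SE 0.06, adjusted p = 0.0804; named after its values were seen) and was not called. Vtn, vitronectin, was nearly absent, at most 0.03 RPKM. Without the library labelled shLuc replicate 2, 0 of the 10 collagens and 0 of the 14 other ligands were called, with medians of 0.31 and 0.22.

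Of the proteins that link integrins to actin inside the cell, limma called 0 of 29 tested genes in shEtnk1/2, with 14 above and 15 below the shLuc mean and a median of -0.02 (limma-voom called 3 higher). Actn1, alpha-actinin 1, had the largest difference (0.31, SE 0.08, adjusted p = 0.0693), and Nedd9, a docking protein, followed (0.31, SE 0.10, adjusted p = 0.14). In Etn-deprived, where 3.22% of all tested genes were called lower, 2 of the 29 were, the kinase Src, at 17.6 and 17.5 RPKM in the controls and 13.1 there (-0.39, SE 0.09, adjusted p = 0.0479), and Zyx, zyxin, at 125.8 and 120.9 RPKM in the controls and 101.4 there (-0.28, SE 0.07, adjusted p = 0.0499). The count was 1 with a pseudocount of 0.1 or 0.5 and 0 with median ratio scaling, quantile normalization, the length trend removed, or either shLuc library left out. Spp1 (0.67, adjusted p = 0.0153) and Thbs1 (0.30, adjusted p = 0.0398) were the ligands that rose there, 2 of 14, beside 0.586% of all tested genes, and 0 of the 10 collagens were called. The ligand count was 1 with median ratio scaling, quantile normalization or the length trend removed, 5 with limma-voom, and 0 without either shLuc library. In shPcyt2 and shPebp1 limma called none of the genes in these 5 lists, and limma-voom called 1 ligand higher in shPcyt2 and 1 collagen lower in shPebp1. In shPebp1 all 10 collagens lay below the shLuc mean, with a median of -0.10 (1 of 10 was above it without shLuc replicate 1).

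**Figure D5:**
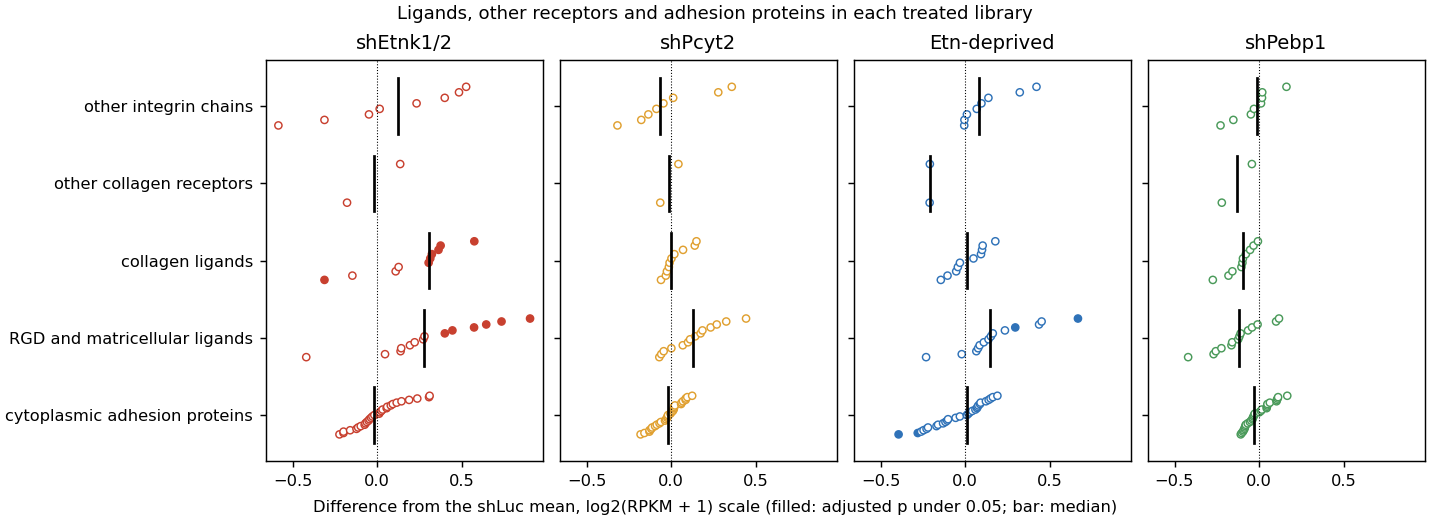
Difference of each tested gene of 5 lists from the shLuc mean on the log2(RPKM + 1) scale in the 4 treated libraries; filled points have an adjusted p under 0.05 by limma and bars are list medians. In shEtnk1/2 the collagen and the Arg-Gly-Asp and matricellular ligands lie to the right (medians 0.31 and 0.27), while the cytoplasmic adhesion proteins lie around 0 (median -0.02).

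The profiles of Itga11 and Itgb1 over the 6 libraries were compared with those of the 6705 genes at or above a mean of 10 RPKM. The profiles most like that of Itga11 were those of Plod3, an enzyme that modifies collagen lysines (Pearson r = 0.995 over 6 libraries), Fam114a1 (0.989), the metalloproteinase Mmp23 (0.986), Cdon (0.984) and the Wnt receptor Fzd1 (0.982). Those most like Itgb1 were Ikbip (0.998), Twsg1 (0.993), Fam198b (0.988), Neo1 (0.985) and the cargo receptor Lman1 (0.980). Among the receptors, Itga11 was most like Itgb5 (0.880) and Itga5 (0.820), and Ddr2 was least like Itga5 (0.019). The value between Itga11 and Itgb1 was lower than those of Itga11 with Itgb5 and Itga5, at 0.771. These values come from the highest of many correlations over 6 libraries that share controls and sequencing, and they describe likeness only.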

How the data were processed

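The authors deposited 1 RPKM value per gene and library. Per the submitters' processing notes, Bowtie 0.12.2 and mm10 were used. Which gene models, counter, strandedness or filters underlie the RPKM is not given in the sources used here. Poly(A) RNA was read as paired ends, per the labels' protocols. For all 18303 lines of the table the values stood in ratios of whole numbers after correction for relative depth (tolerance 1e-05 reads and a relative 5e-09), and the smallest such numbers were taken as reads. Whether these count reads or pairs is unknown. Poisson intervals from them (95%) cover counting error only. Of 2 symbols on several lines the higher was used.

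The 11939 genes averaging 1 RPKM or more were tested with limma 3.58.1 (R 4.3.3, trended and robust) on log2(RPKM + 1), which understates the change of low genes. With 1 library per treated group, variance rested on the shLuc pair (1 residual degree of freedom, prior 9.24), which stands in for that of the treated groups. The comparison of 3 against 2 libraries had 3 residual and 6.37 prior degrees of freedom. P-values are two-sided, Benjamini-Hochberg adjusted over all genes tested. The labels do not say whether the shLuc libraries came from separate cultures. The p-values therefore measure only how far these samples differ, which may be technical.

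The genes, lists, tests and the rule for named genes were chosen with earlier results of these data known. Named were all 9 receptors, the targeted genes and, in each list, up to 4 called members with the largest differences (2 where none was called). Alternatives changed the pseudocount, filter, scaling, tool, length trend, empirical Bayes step and the libraries used. Promoter sequences are from RefSeq (GRCm38.p6).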

Additional observations from a re-analysis of the deposited data

How the results depend on the processing

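Each count of receptor genes called, and each of the 64 log2 differences of a receptor gene, was recomputed under the alternatives, 680 values for the differences in all. Of these 643 kept their direction and their side of the threshold, 14 lost a call, 6 gained one and 17 changed sign, none of the last in a value that was called. In shEtnk1/2 against shLuc 2 genes were called, 1 after quantile normalization, 0 with no filter on low values and 0 to 0 without either shLuc library. In Etn-deprived against shLuc 0 were called, but 1 (Itgb1) with a filter of 5 RPKM, after quantile normalization and with limma-voom. Against shPcyt2 and against Etn-deprived, shEtnk1/2 had 0 called and 1 (Itga11) with limma-voom. Against shPebp1 it had 2, 3 (Itgb5 gained) with limma-voom, 1 after quantile normalization, 0 with no filter and 0 without either shLuc library. With no filter 0 of all genes passed in the comparisons of single libraries; the cause was not tested. Without a shLuc library the spread came from pathway libraries that differ from each other, and 3 to 5 genes of 11939 were called in shEtnk1/2 in place of 413. For shEtnk1/2 against shPcyt2 and Etn-deprived that setting left no residual degrees of freedom and could not be fitted. Over all genes, the 413 calls in shEtnk1/2 became 240 with median ratio scaling, 153 after quantile normalization and 790 with limma-voom. The 454 in Etn-deprived became 261, 197 and 700 under the same settings, and 78 with the length trend removed.

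The values that changed sign were small. With the length trend removed, Ddr2 went to 0.0186 and Itgav to 0.0251 in shPcyt2, Itga5 to -0.00729 in Etn-deprived, and Ddr2 to 0.00463 and Itgav to 0.0315 in shEtnk1/2 against Etn-deprived. Itgb3 in Etn-deprived went to 0.00247 with median ratio scaling, and Itgb1 in shEtnk1/2 against Etn-deprived to -0.110 after quantile normalization. Leaving out either shLuc library, Ddr2 ranged from -0.0375 to 0.0940 in shEtnk1/2, from -0.118 to 0.0137 in shPcyt2, from -0.103 to 0.0282 in shPebp1 and, leaving out any 1 library, from -0.0358 to 0.0957 in the 3 pathway libraries. Likewise Itgb3 ranged from -0.0277 to 0.0707 in shPcyt2 and from -0.0591 to 0.0393 in Etn-deprived, Itgb5 from -0.0107 to 0.127 in shPcyt2, Itga5 from -0.00968 to 0.0313 in Etn-deprived and Itga11 from -0.0728 to 0.0699 in shPebp1.

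No paired analysis was possible because only the shLuc group has more than 1 library. Depth limits Itga2, at 3 to 10 reads per library.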
